A study of Mus musculus with 6 samples.

Results

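ATP-binding cassette (ABC) transporter genes other than those of bile export were followed in cultured primary hepatocytes of the mouse, the main epithelial cells of the liver. Members were all gene symbols made of Abc, a subfamily letter from a to g and a number, less Abcb11, Abcb4, Abcc2, Abcc3, Abcc4, Abcg5 and Abcg8. This left 43 genes of the 22609 in the files. Of these, 31 had 10 or more counts in at least 3 libraries and are described by subfamily, and 12 fell below that count. Human-style aliases are not matched by such a rule, so Tap1 and Tap2, which belong to subfamily B by structure, and Cftr, which belongs to subfamily C, are not members.

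The LRG1 group was 3 libraries of hepatocytes exposed to 20 µg/mL of LRG1 protein, a secreted leucine-rich glycoprotein, and the PBS group was 3 libraries of hepatocytes given phosphate-buffered saline. Both treatments lasted 16 h. All cells came from male wild-type C57BL/6 mice aged 4 months. Whether the 3 samples of a group are separate animals or dishes is not labelled, so each p-value reflects the spread among these samples alone, and that spread may be technical. The study's title presents LRG1 as an adipose-derived signal linked to liver fat and insulin resistance.

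ABC proteins use the energy of ATP to move substrates across membranes. Subfamily A and part of G move sterols and phospholipids, B and C carry drugs, conjugates, peptides and metabolites, and D imports fatty acids into peroxisomes or cobalamin out of lysosomes. Members of E and F have the ATP-binding domains without a membrane part and work in translation. In the liver the family is best known for drug efflux, for cholesterol loading of high-density lipoprotein, and for mitochondrial iron and heme handling.

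Gene counts summed to 18625748 to 23036332 per library, and member genes took 32192 to 39855 of them. Levels are counts-per-million values (CPM), computed from each library's scaled total. Of 8 hepatocyte markers, 4 fell with LRG1 (25.8% of all tested genes fell) and 4 did not pass. Alb, which did not pass, averaged 18555 ± 375 CPM with LRG1 and 19235 ± 676 CPM with PBS (SD, n = 3 each), while Tat, a tyrosine-degrading enzyme gene, averaged 1.19 ± 0.194 CPM with LRG1 and 9.20 ± 1.33 CPM with PBS, and Cps1, of the urea cycle, 8.44 ± 1.58 CPM with LRG1 and 36.3 ± 2.81 CPM with PBS. Apoa1 (log2 fold change -0.62) and Cyp2e1 (-0.19) were lower too. Marker genes of other cells also had counts, several of them near the floor. Cd163, of macrophages, had 1 count each in LRG1 replicate 1 and PBS replicate 1 and none elsewhere. Of the cholangiocyte genes, Cftr had 1 count, in LRG1 replicate 2, and Krt7 had 2 to 11 counts a library. Summed levels of 8 Kupffer cell and macrophage genes were 182 to 208 CPM with LRG1 and 219 to 266 CPM with PBS, mostly Cd68. For 7 endothelial genes they were 33.7 to 37.8 CPM with LRG1 and 39.9 to 42.4 CPM with PBS, and for 8 stellate cell and fibroblast genes 143 to 153 CPM with LRG1 and 45.0 to 46.6 CPM with PBS, the difference being mostly Col1a1. For 6 cholangiocyte genes they were 4325 to 4643 CPM with LRG1 and 4446 to 4630 CPM with PBS, mostly Spp1, which did not pass, while Krt19 was lower (log2 fold change -2.50) and Sox9 higher (0.68). Of 5 lymphocyte genes, 4 were at 0 counts in every library. In such bulk samples, fewer cells of a type and less RNA per cell cannot be told apart. The part of these other cells, and of the lower hepatocyte markers, in the member values was not tested.

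LRG1-treated hepatocytes had lower mRNA levels of most lipid-moving subfamily A genes, of Abcc12 and of the peroxisomal transporter gene Abcd2, and higher levels of the drug-efflux genes Abcb1a and Abcb1b and of Abcg1. Of the 31 genes, 17 were lower, 5 were higher and 9 did not pass an adjusted p of 0.05 in edgeR's quasi-likelihood test over all 12301 tested genes. These counts stand against a wide background: 51.4% of all tested genes passed, 25.8% lower and 25.5% higher, while the members' shares were 71.0% called, 54.8% lower and 16.1% higher. The median log2 fold change of the 31 members was -0.23, against 0.0093 over all tested genes, and the median absolute value was 0.33, against 0.20. The groups did not overlap for 22 of the 31 members and for 57.6% of all tested genes. At least 1.5-fold lower and called were 10 members (10.6% of all tested genes), and at least 1.5-fold higher were 2 (7.49%). Differences of at least 2-fold were found for 5 lower members (background 5.43%) and 1 higher member (4.07%).

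**Figure D1:**
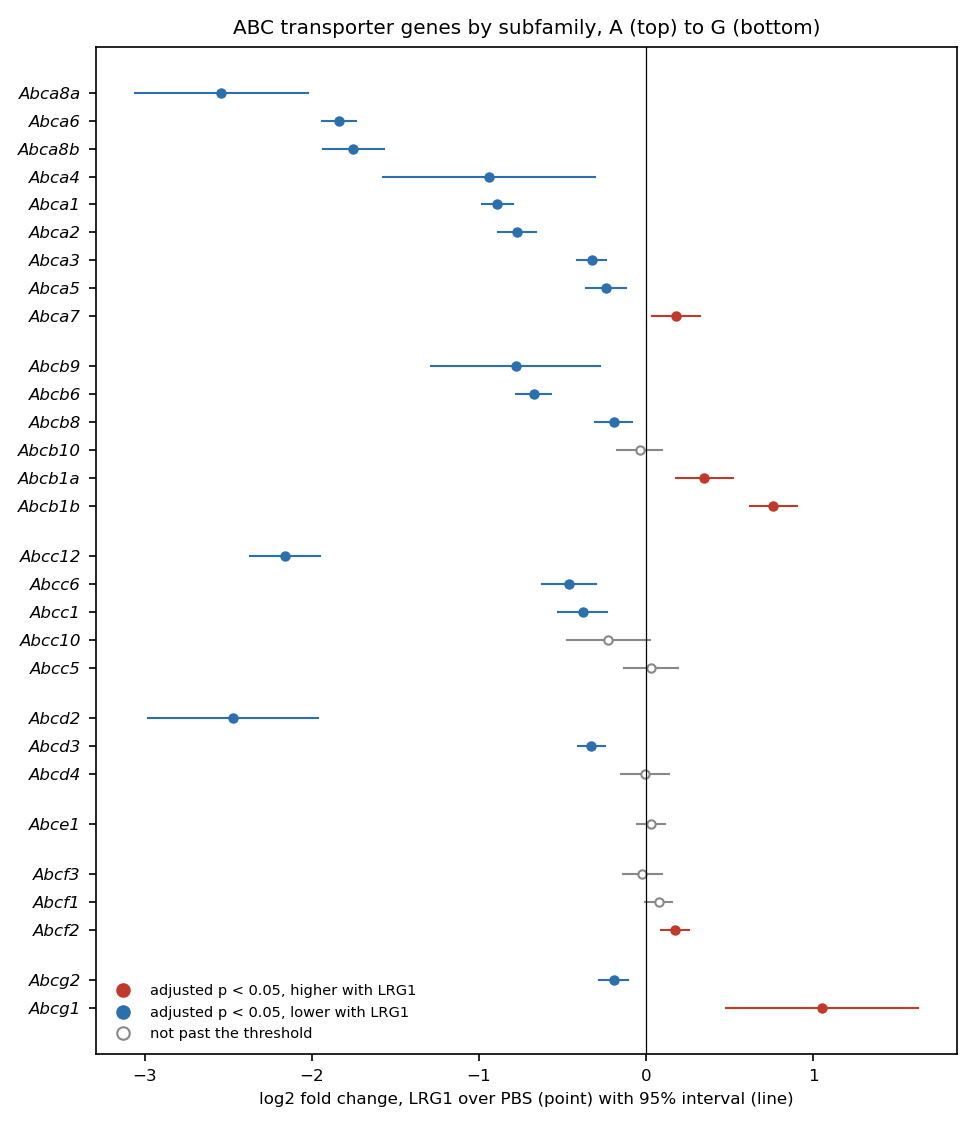
Log2 fold change (LRG1 over PBS) of 29 of the 31 ABC transporter genes with its 95% interval from edgeR, grouped by subfamily from A at the top to G at the bottom. Abca8a and Abcd2 lie farthest to the left, at -2.54 and -2.47, and Abcg1 farthest to the right, at 1.05.

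Summed over all 43 genes, the level was 1632 ± 8.35 CPM with LRG1 and 1998 ± 16.1 CPM with PBS (SD, n = 3 each). The libraries ran from 1622 to 1637 CPM with LRG1 and from 1988 to 2017 CPM with PBS, so the groups did not overlap. The difference of -367 CPM was concentrated in subfamily A, which held 79.3% of it, and Abca6 and Abca1 together held 54.9%. The sum of subfamily F ran the other way without overlap, at 385 to 398 CPM with LRG1 and 362 to 381 CPM with PBS. A sum of CPM weighs long and abundant mRNAs most.

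**Figure D2:**
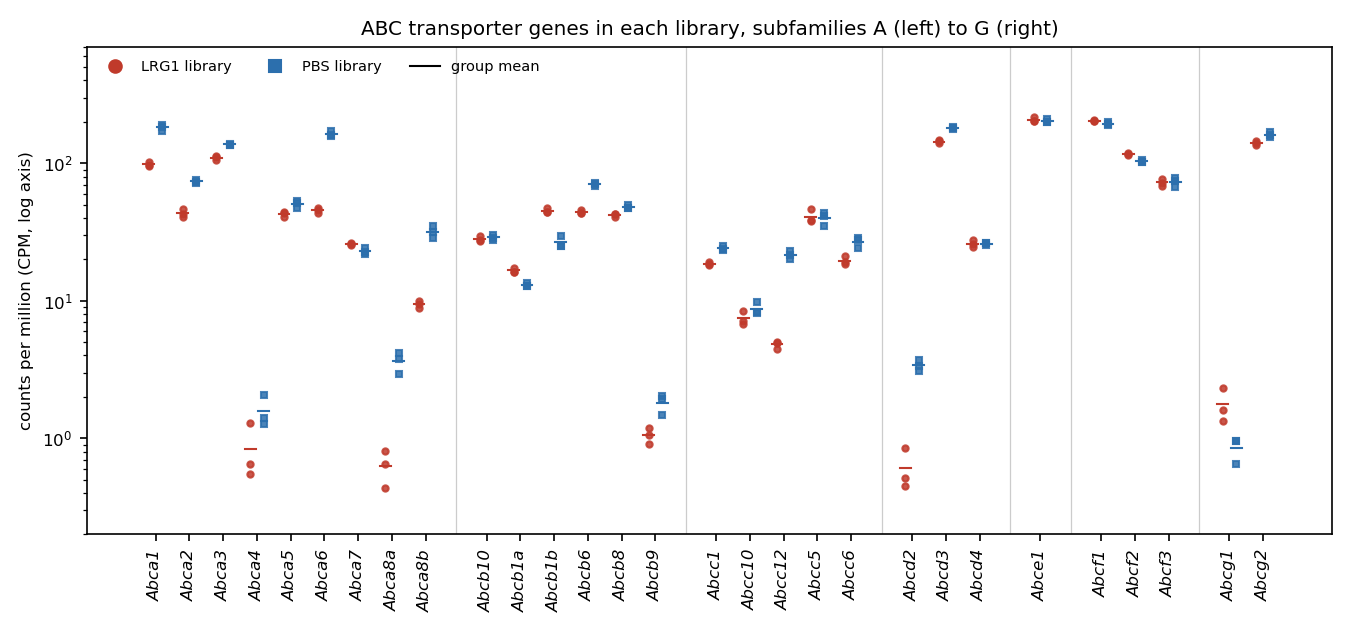
CPM of 29 of the 31 genes in every library on a log axis, with LRG1 libraries (circles) left of PBS libraries (squares), a line at each group mean, and subfamilies A to G from left to right. The groups stand apart for most subfamily A genes and overlap for Abca4, Abcb10, Abcc5, Abcc10, Abcd4, Abce1 and Abcf3.

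Scaled to the length of the longest coding transcript, the translation genes led the family. Abcf1 had 64.6 ± 0.780 CPM per kb with LRG1 and 61.3 ± 1.76 with PBS (SD, n = 3 each), and Abce1 had 54.5 ± 1.95 with LRG1 and 53.4 ± 1.87 with PBS. In the PBS libraries the mean of Abcd3, 51.7 ± 0.720 CPM per kb, was lower but lay within the SD of Abce1. That closeness depends on the length used. Over all annotated exons, the PBS means were 33.7 CPM per kb for Abce1 and 27.4 for Abcd3, with Abcf2 above both at 40.2. Abca6 differed between the groups in its place in the order by transcript length. It had 8.69 ± 0.327 CPM per kb with LRG1, place 14 of 31, and 31.1 ± 1.49 with PBS, place 5. With lengths taken over all annotated exons its places were 11 with LRG1 and 4 with PBS. Abcg1 was the least abundant of the 31 in the PBS libraries, at 0.147 ± 0.031 CPM per kb, against 0.302 ± 0.088 with LRG1. Transcript lengths come from an annotation of another genome build than that of the counts, and the isoforms used in these cells are not known.

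**Figure D3:**
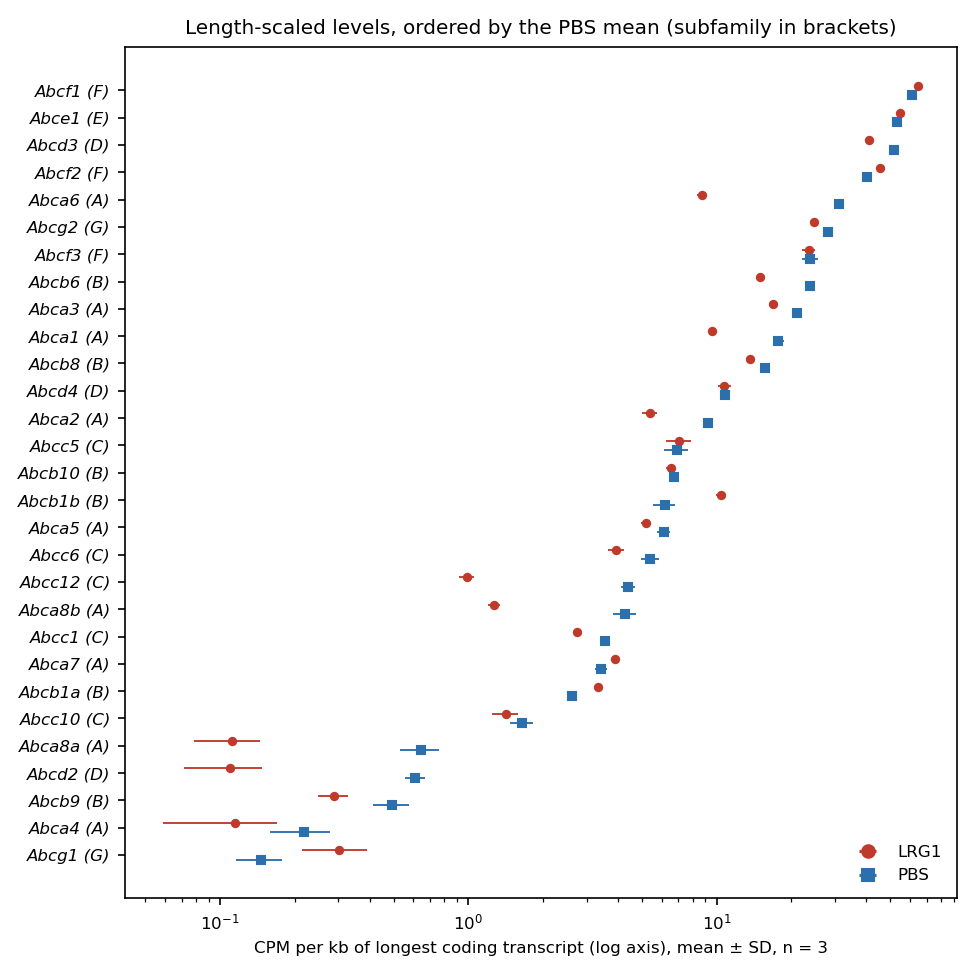
Mean ± SD (n = 3) of CPM per kb of the longest coding transcript for 29 of the 31 genes on a log axis, LRG1 as circles above PBS as squares, in descending order of the PBS mean from Abcf1 (61.3) to Abcg1 (0.147). Abca6, Abcc12, Abca8b, Abca8a and Abcd2 show the widest gaps between the groups.

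Subfamily A holds large transporters of lipids. Of its 9 members with enough counts, 8 were lower with LRG1 and Abca7 was higher. Abca1 sends cellular cholesterol and phospholipid to apolipoprotein A-I, the first step in making high-density lipoprotein. It had 102, 96.9 and 95.3 CPM in LRG1 replicates 1 to 3, against 184, 190 and 172 CPM in PBS replicates 1 to 3. Every LRG1 library was below every PBS library, a log2 fold change of -0.89 (SE 0.044, adjusted p = 4.17e-14). Abca1 is the textbook target of the liver X receptors, which bind sterols and pair with RXR. The LXR-alpha gene Nr1h3 fell to 43.4 ± 0.799 CPM with LRG1, against 67.3 ± 3.80 CPM with PBS (log2 fold change -0.63), and Nr1h2, for LXR-beta, was 99.8 ± 6.13 CPM with LRG1 and 90.9 ± 3.06 CPM with PBS (log2 fold change 0.13, adjusted p = 0.0240). Of 7 tested LXR target genes outside the family, 5 fell with LRG1, 1 rose and 1 missed the threshold. Among all tested genes, 25.8% fell and 25.5% rose. The higher one was Arl4c, a small GTPase gene, at 158 ± 1.91 CPM with LRG1 and 74.8 ± 5.32 CPM with PBS. Abcg1, another known LXR target and described further on, was also higher.

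The Abca1 start region carries the receptor's known element, so its RefSeq sequence is printed from 250 bases before to 50 bases after the annotated start (GRCm38.p6, chr4:53159846-53160145, minus strand). A search of both strands used 7 motifs, the E-box CACGTG, the CCAAT box, the GC box GGGCGG, the TATA box TATAAA, the LXR element (GGTTA and GGTCA with 5 bases between them), the SMAD element CAGACA and the antioxidant element TGACNNNGC. In each sequence printed here capitals mark every match to any of them.
Abca1: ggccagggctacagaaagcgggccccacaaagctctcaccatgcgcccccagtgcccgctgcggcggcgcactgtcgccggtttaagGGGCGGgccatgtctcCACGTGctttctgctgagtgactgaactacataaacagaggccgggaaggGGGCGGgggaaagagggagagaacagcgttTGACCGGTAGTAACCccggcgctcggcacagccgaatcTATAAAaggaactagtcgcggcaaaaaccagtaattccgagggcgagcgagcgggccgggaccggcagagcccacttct
In Abca1 the capitals are, from left to right, a GC box, the E-box, a GC box, the LXR element on the opposite strand and the TATA box. None of these overlap. Spelled as above, the LXR element was found in 16 of 32851 promoters of the table (0.0487%). None of the other 21 members with an entry there had it. Other spellings of LXR sites were not searched, and this one fits the known Abca1 element. Its absence elsewhere therefore does not exclude an LXR site. Another 9 members, Abcg1 among them, had no entry and were not searched. A match describes letters and does not show binding.

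Abca2, which acts in endosomal and lysosomal lipid traffic, had 46.5, 40.6 and 42.7 CPM with LRG1, against 73.3, 72.2 and 75.8 CPM with PBS. These groups were well apart (log2 fold change -0.77, SE 0.054, adjusted p = 2.21e-11). Abca3, known for loading surfactant phospholipid in the lung, was lower by a small amount, 109 ± 3.45 CPM with LRG1 and 137 ± 1.75 CPM with PBS (log2 fold change -0.33). Exons of Abca3 overlap D330041H03Rik on the opposite strand, and whether counting used the strand is not known, so its value is uncertain. Abca4, a retinoid transporter of photoreceptors, was scarce, with 1.29, 0.648 and 0.554 CPM with LRG1 and 2.07, 1.40 and 1.27 CPM with PBS. Here LRG1 replicate 1 lay within the range of the PBS group. Its call (log2 fold change -0.94, adjusted p = 0.0132) was lost without LRG1 replicate 2 (-0.77, adjusted p = 0.0701), without LRG1 replicate 3 (-0.74, adjusted p = 0.0789) and without PBS replicate 1 (-0.69, adjusted p = 0.103), in a range of adjusted p over all alternatives of 0.00146 to 0.103. Abca7, linked to phospholipid handling and phagocytosis, was the member that ran against the rest. It had 26.0 ± 0.407 CPM with LRG1 and 22.9 ± 1.23 CPM with PBS (log2 fold change 0.18, adjusted p = 0.0325). That small difference did not pass without LRG1 replicate 1, 2 or 3 (adjusted p = 0.0503, 0.0971 and 0.0546), without PBS replicate 1 or 2 (adjusted p = 0.121 and 0.0736) or with DESeq2 (adjusted p = 0.0849), and the range over all alternatives was 0.0195 to 0.121.

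Abca6, Abca8a, Abca8b and Abca9 are subfamily A genes with little-known substrates. With Abca5 they lie side by side on mouse chromosome 11, in the order Abca8b, Abca8a, Abca9, Abca6 and Abca5, all on the minus strand. Abca6 had 43.8, 47.2 and 45.5 CPM with LRG1, against 172, 157 and 161 CPM with PBS. It was 3.58-fold lower (log2 fold change -1.84, SE 0.048, adjusted p = 3.09e-19). Abca8b, with 9.96, 9.41 and 8.92 CPM with LRG1 and 31.9, 28.5 and 35.1 CPM with PBS, was 3.37-fold lower (log2 fold change -1.75, SE 0.088, adjusted p = 4.98e-14). Abca8a, with 0.647, 0.432 and 0.806 CPM with LRG1 and 3.80, 2.91 and 4.19 CPM with PBS, was 5.83-fold lower (log2 fold change -2.54, SE 0.25, adjusted p = 8.10e-09). In each of these genes the LRG1 libraries all lay below the PBS libraries. Abca9 was under the count limit, with 5, 3 and 4 counts in the LRG1 libraries and 9, 14 and 9 counts in the PBS libraries, and was not tested. Abca5, which acts in late endosomes and lysosomes, closes the row and differed little, with 42.6 ± 1.92 CPM with LRG1 and 50.3 ± 2.95 CPM with PBS (log2 fold change -0.24, SE 0.058, adjusted p = 0.00127). The 95% intervals of Abca6 (-1.94 to -1.74) and Abca5 (-0.36 to -0.12) lie far apart. Within libraries, Abca6 counts were 1.07 ± 0.016 times those of Abca5 with LRG1 and 3.24 ± 0.169 times with PBS (SD, n = 3 each), a pair chosen after its values were seen.

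Abca8a and Abca8b are close paralogs, yet only 1.89% of the 50-base windows of the Abca8a transcript occur in Abca8b transcripts, so reads of 50 bases can mostly be told apart. Counts of Abca8b were 16.1 ± 5.40 times those of Abca8a with LRG1 and 8.85 ± 0.805 times with PBS (SD, n = 3 each). The LRG1 ratios rest on only 13, 10 and 16 Abca8a counts and ran from 11.1 to 21.8, so they are imprecise. An exact two-sided permutation test of the log2 ratio gave p = 0.10 (adjusted p = 0.10 over the 2 paralog pairs tested), the smallest p that 3 against 3 allows. Start regions of 3 genes of this row are shown because the neighbours differ in their change, from RefSeq, GRCm38.p6, minus strand, at chr11:110095888-110096187 for Abca8a, chr11:109995796-109996095 for Abca8b and chr11:110337667-110337966 for Abca5. Abca6 had no entry in the promoter table.
Abca8a: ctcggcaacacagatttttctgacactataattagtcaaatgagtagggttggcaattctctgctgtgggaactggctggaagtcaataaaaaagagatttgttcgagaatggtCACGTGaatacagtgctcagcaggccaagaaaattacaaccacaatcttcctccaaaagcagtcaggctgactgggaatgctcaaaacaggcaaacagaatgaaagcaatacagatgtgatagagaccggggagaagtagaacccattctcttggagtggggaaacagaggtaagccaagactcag
Abca8b: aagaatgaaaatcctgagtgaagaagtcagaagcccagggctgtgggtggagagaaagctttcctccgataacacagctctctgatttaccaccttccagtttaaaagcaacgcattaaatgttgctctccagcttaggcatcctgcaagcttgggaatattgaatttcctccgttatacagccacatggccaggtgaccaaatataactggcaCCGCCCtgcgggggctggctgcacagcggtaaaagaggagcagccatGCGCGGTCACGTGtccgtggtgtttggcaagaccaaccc
Abca5: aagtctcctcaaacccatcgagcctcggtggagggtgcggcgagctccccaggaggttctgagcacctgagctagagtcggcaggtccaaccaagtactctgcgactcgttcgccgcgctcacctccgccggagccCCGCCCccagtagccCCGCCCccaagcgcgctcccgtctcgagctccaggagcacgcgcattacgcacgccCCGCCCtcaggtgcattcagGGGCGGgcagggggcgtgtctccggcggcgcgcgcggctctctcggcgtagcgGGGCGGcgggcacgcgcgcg
Abca8a has the E-box as its sole match. Abca8b has a GC box on the opposite strand and, further right, an antioxidant element on the opposite strand that overlaps the E-box. Abca5 has 5 GC boxes, on both strands. The E-box was present in 7.15% of all promoters and in those of Abca1, Abca8a, Abca8b and Abcf1 among the 22 members with an entry, and Abcf1 did not pass the test. The GC box was in 35.7% of all promoters and in those of 14 members.

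**Figure D4:**
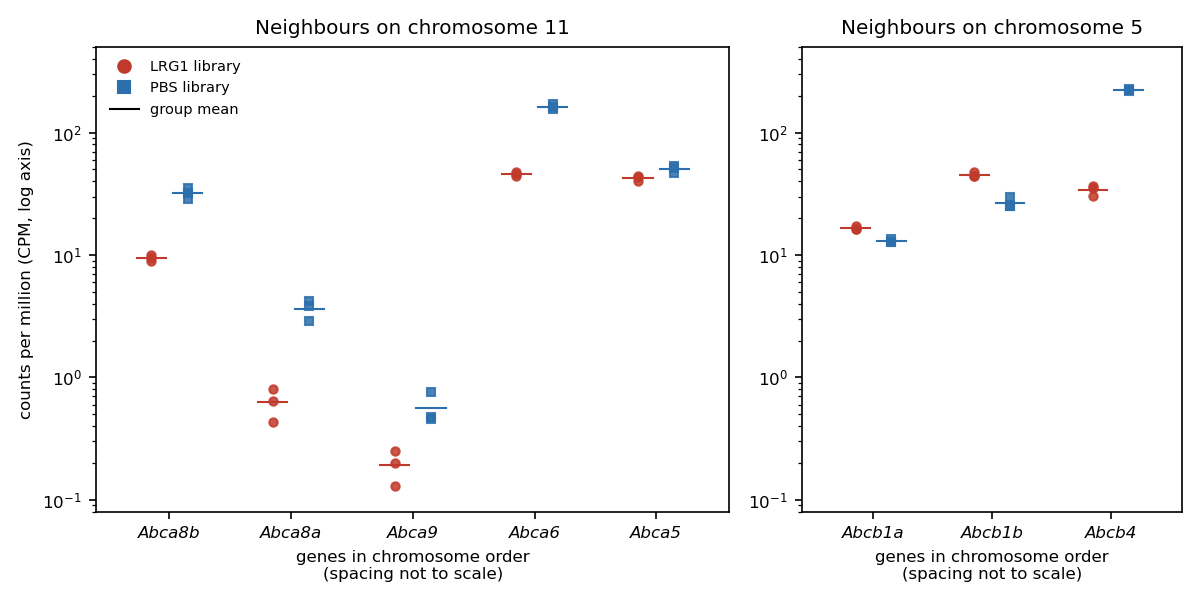
CPM per library on a log axis for 2 rows of neighbouring ABC genes in chromosome order, chromosome 11 on the left and chromosome 5 on the right, with LRG1 libraries (circles) left of PBS libraries (squares) and a line at each group mean. The gap between the groups is wide for Abca8b, Abca8a and Abca6 and narrow for Abca5, and Abcb1a and Abcb1b stand higher with LRG1 while Abcb4, beside them, stands lower.

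In subfamily B, with 7 members measured, 2 rose with LRG1, 3 fell and the other 2 missed the threshold. The shares over all tested genes were 25.5% rising and 25.8% falling. Abcb1a and Abcb1b encode the mouse forms of P-glycoprotein, the plasma membrane pump of many hydrophobic drugs, for which humans have a single gene. Abcb1b had 47.4, 43.8 and 43.8 CPM with LRG1, against 24.9, 29.5 and 25.2 CPM with PBS. It was 1.70-fold higher, with no overlap of the groups (log2 fold change 0.76, SE 0.068, adjusted p = 1.53e-09). Abcb1a had 16.2, 16.3 and 17.3 CPM with LRG1, against 12.9, 12.7 and 13.5 CPM with PBS. It was also higher in every LRG1 library, by 1.27-fold (log2 fold change 0.35, SE 0.084, adjusted p = 0.00119). The ratio of Abcb1b to Abcb1a counts was 2.92, 2.69 and 2.54 in LRG1 replicates 1 to 3 and 1.94, 2.32 and 1.87 in PBS replicates 1 to 3. The ratios did not overlap between groups, and the exact two-sided permutation test gave p = 0.10 (adjusted p = 0.10 over the 2 paralog pairs), again the smallest that 3 against 3 allows. Of the 50-base windows of Abcb1a, 15.5% also occur in Abcb1b, and 18.0% of those of Abcb1b occur in Abcb1a, so part of both genes' reads may have been dropped as not unique.

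The neighbour of this pair on chromosome 5 is Abcb4, the phospholipid flippase of the bile canaliculus, which the rule leaves out. It had 34.1 ± 3.17 CPM with LRG1 and 223 ± 3.81 CPM with PBS (log2 fold change -2.71). Abcb1b counts were 1.33 ± 0.101 times those of Abcb4 with LRG1 and 0.119 ± 0.011 times with PBS (SD, n = 3 each), also a pair chosen after its values were seen. Of the 7 bile export genes left out, 6 were lower with LRG1 and Abcg5 did not pass (log2 fold change -0.40, adjusted p = 0.0725). Among all tested genes, 25.8% were lower.

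The start region of Abcb1b is shown because this gene had the larger difference of the pair (RefSeq, GRCm38.p6, plus strand, chr5:8797897-8798196). The Abcb1a entry of that table lies far upstream of the gene's start in the GENCODE annotation of the same build and is not shown.
Abcb1b: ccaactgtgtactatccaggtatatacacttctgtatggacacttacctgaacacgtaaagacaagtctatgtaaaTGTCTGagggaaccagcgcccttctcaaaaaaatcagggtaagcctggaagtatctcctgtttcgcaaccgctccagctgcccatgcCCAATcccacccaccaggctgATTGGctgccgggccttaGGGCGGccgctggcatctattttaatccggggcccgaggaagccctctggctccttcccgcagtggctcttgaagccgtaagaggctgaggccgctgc
Abcb1b has a SMAD element on the opposite strand, CCAAT boxes on both strands and a GC box. SMAD elements were present in 21.0% of all promoters and in those of 6 members, namely Abcb1a, Abcb1b, Abcc12, Abcd3, Abcf1 and Abcg2, which went in both directions or did not pass. For Abcb1a this refers to the distant entry. The antioxidant element was in 12.4% of all promoters, the CCAAT box in 37.4% and the TATA box in 13.6%.

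The other B genes work inside the cell. Abcb6, a porphyrin-linked transporter of mitochondria and lysosomes, had 45.7, 43.1 and 43.8 CPM with LRG1, against 68.7, 70.5 and 72.2 CPM with PBS. All LRG1 libraries were below all PBS libraries (log2 fold change -0.67, SE 0.050, adjusted p = 6.45e-11). A later annotation places a further transcript, Gm29253, over 90.3% of the 50-base windows of Abcb6, and it has no row of its own in the files. Abcb8, of the inner mitochondrial membrane, was lower by a log2 fold change of -0.19 (42.0 ± 1.23 CPM with LRG1, 48.1 ± 1.29 CPM with PBS, adjusted p = 0.0043). Abcb10, which supports heme synthesis, did not pass (28.1 ± 1.33 CPM with LRG1, 28.9 ± 1.19 CPM with PBS, log2 fold change -0.039, 95% interval -0.18 to 0.098). Of 10 tested iron-sulfur cluster and heme partners of the mitochondrial B genes, 6 fell with LRG1, 2 rose and the other 2 missed the threshold. Over all tested genes, 25.8% fell and 25.5% rose. In that list Fech, which inserts iron into heme, had 142 ± 2.27 CPM with LRG1 and 184 ± 4.86 CPM with PBS. Slc25a37, the mitochondrial iron importer mitoferrin-1, had 280 ± 12.7 CPM with LRG1 and 137 ± 8.91 CPM with PBS (log2 fold change 1.04).

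Abcb9, a lysosomal peptide transporter, was scarce, with 1.20, 0.907 and 1.06 CPM with LRG1 and 1.47, 1.94 and 2.02 CPM with PBS. The groups did not overlap (log2 fold change -0.78, SE 0.24, adjusted p = 0.0098). Its call was lost without LRG1 replicate 2 (-0.67, adjusted p = 0.0533) and without PBS replicate 3 (-0.69, adjusted p = 0.0506), in a range over all alternatives of 0.00584 to 0.0533. Its relatives Tap1 and Tap2, which load peptides for antigen display, did not pass, at 80.9 ± 4.83 CPM with LRG1 and 74.8 ± 5.28 CPM with PBS for Tap1 (adjusted p = 0.0956) and 86.0 ± 3.15 CPM with LRG1 and 84.1 ± 6.16 CPM with PBS for Tap2 (adjusted p = 0.632). In the list of 8 antigen peptide loading genes that holds them, 3 were higher, 2 lower and 3 did not pass. The shares over all tested genes were 25.5% higher and 25.8% lower.

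Subfamily C holds exporters of drugs and conjugates and the receptors of sulfonylureas. Of 5 measured members, 3 were lower, none was higher and 2 did not pass (all tested genes: 25.8% lower, 25.5% higher). Abcc12, whose substrate is poorly known, had 4.43, 4.97 and 5.04 CPM with LRG1, against 23.0, 21.6 and 20.1 CPM with PBS. It was 4.47-fold lower, with the groups far apart (log2 fold change -2.16, SE 0.10, adjusted p = 1.24e-14). Abcc6, which in hepatocytes releases ATP and thereby feeds the pyrophosphate that restrains calcification, had 19.6 ± 1.40 CPM with LRG1 and 26.9 ± 2.23 CPM with PBS (log2 fold change -0.46, SE 0.078, adjusted p = 2.93e-05). Abcc1, an exporter of glutathione conjugates, had 18.5 ± 0.445 CPM with LRG1 and 24.1 ± 0.762 CPM with PBS (log2 fold change -0.38, adjusted p = 9.81e-05). Neither gene's groups overlapped. Abcc5, an exporter of nucleotide analogs, had 40.9 ± 4.71 CPM with LRG1 and 40.2 ± 4.40 CPM with PBS and did not pass (log2 fold change 0.028, 95% interval -0.13 to 0.19). Abcc10, tied to drug resistance, had 7.46 ± 0.883 CPM with LRG1 and 8.69 ± 0.933 CPM with PBS and did not pass either (log2 fold change -0.23, 95% interval -0.48 to 0.024). A short overlap of Abcc10 with Dlk2 on the opposite strand leaves its value uncertain.

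A list of nuclear receptors and other regulators of ABC transporter genes covers sterol, bile acid and drug responses. Of its 10 tested genes, 8 were lower, against 25.8% of all tested genes, Nr1h2 was higher and Ahr did not pass. The lower ones ran down to small differences, such as -0.15 on the log2 scale for Rxra, the receptors' partner, and for Srebf2, the sterol synthesis regulator. Nr1i2, the pregnane X receptor and an activator of P-glycoprotein genes, had 14.2 ± 1.91 CPM with LRG1 and 38.0 ± 2.79 CPM with PBS (log2 fold change -1.42). Nfe2l2, which encodes NRF2, had 202 ± 1.64 CPM with LRG1 and 392 ± 2.60 CPM with PBS (log2 fold change -0.96).

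Subfamily D transporters act in peroxisomes, apart from Abcd4. Abcd2, which carries very long-chain and polyunsaturated acyl-CoA, had 0.846, 0.518 and 0.453 CPM with LRG1, against 3.09, 3.72 and 3.34 CPM with PBS. It was 5.56-fold lower (log2 fold change -2.47, SE 0.25, adjusted p = 9.09e-09). In the LRG1 libraries this is 17, 12 and 9 counts, so it met the count limit in 2 of those 3 libraries and in all PBS libraries. Abcd3, the most abundant D gene, imports branched and dicarboxylic acyl-CoA and bile acid precursors. It had 144 ± 3.49 CPM with LRG1 and 180 ± 2.51 CPM with PBS (log2 fold change -0.33, SE 0.039, adjusted p = 1.62e-07). Abcd4, which moves cobalamin out of lysosomes, had 25.9 ± 1.52 CPM with LRG1 and 26.0 ± 0.544 CPM with PBS and did not pass (log2 fold change -0.0069, 95% interval -0.15 to 0.14). Of 10 tested partners in peroxisomes and cobalamin handling, 7 were lower, none was higher and 3 did not pass. The shares over all tested genes were 25.8% lower and 25.5% higher. Ehhadh, the bifunctional enzyme of peroxisomal beta-oxidation, had 21.2 ± 0.911 CPM with LRG1 and 39.5 ± 3.81 CPM with PBS (log2 fold change -0.90), whereas Pex19, the chaperone that brings D proteins to the peroxisome, did not pass (log2 fold change 0.019, adjusted p = 0.743).

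Genes of subfamilies E and F, which lack membrane domains, differed little. Abce1 splits ribosomes after termination. It had 204, 215 and 201 CPM with LRG1 and 211, 198 and 199 CPM with PBS, overlapping ranges (log2 fold change 0.031, 95% interval -0.053 to 0.12). Abcf1, which acts in translation initiation with eIF2, had 204 ± 2.47 CPM with LRG1 and 194 ± 5.55 CPM with PBS and did not pass (log2 fold change 0.076, adjusted p = 0.106). Abcf2 was higher by a small amount, 117 ± 2.40 CPM with LRG1 and 103 ± 1.72 CPM with PBS (log2 fold change 0.17, SE 0.041, adjusted p = 0.00119). Abcf3, related to the yeast translation regulator Gcn20, had 72.4 ± 4.24 CPM with LRG1 and 73.5 ± 5.60 CPM with PBS and did not pass (log2 fold change -0.022, 95% interval -0.14 to 0.094). Of 10 tested partners in ribosome recycling and translation control, 3 were higher, none was lower and 7 did not pass. Among all tested genes, 25.5% were higher and 25.8% lower. Denr, a recycling factor, had 104 ± 5.70 CPM with LRG1 and 77.8 ± 5.42 CPM with PBS (log2 fold change 0.42).

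Subfamily G proteins work as dimers. Abcg2, the drug and urate exporter of the canalicular membrane, had 140 ± 4.81 CPM with LRG1 and 161 ± 6.20 CPM with PBS (log2 fold change -0.19, SE 0.042, adjusted p = 0.000452). Abcg1, which passes cholesterol to high-density lipoprotein and is abundant in macrophages, had 1.34, 2.33 and 1.61 CPM with LRG1, against 0.962, 0.647 and 0.955 CPM with PBS. These are 27, 54 and 32 counts with LRG1 and 19, 12 and 18 counts with PBS. The groups did not overlap and the level was 2.07-fold higher (log2 fold change 1.05, SE 0.28, adjusted p = 0.00279). Of the 7 tested Kupffer cell and macrophage genes, Marco was also higher (log2 fold change 0.70), Cd68 was lower (-0.36) and 5 did not pass. Of all tested genes, 25.5% were higher and 25.8% lower. Cd163, the untested one of the 8, had 1 count each in LRG1 replicate 1 and PBS replicate 1 and none elsewhere. The part of macrophages in the value of Abcg1 was not tested.

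The 12 genes under the count limit included 4 with no count in any library, Abca13, Abca15, Abca16 and Abcb5. With 120270027 gene counts in all, a count of 0 allows up to 0.0249 CPM, counting error only. Abca12, Abca14, Abca17, Abcc8 and Abcg4 had at most 6 counts in a library. By the third-highest library count, which the limit of 10 is set on, the members just inside were Abca4 (26 counts), Abcg1 (27) and Abcb9 (29), and those just outside were Abca9 (9), Abcc9 (8) and Abcg3 (3). Abcc9, a subunit of the ATP-sensitive potassium channel, had 8, 6 and 13 counts with LRG1 and 13, 5 and 5 with PBS. Its pore partner Kcnj8 did not pass (adjusted p = 0.156), and Kcnj11 was at 0 counts in every library.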

How the data were processed

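RNA-seq libraries (poly(A)-selected, strand-marking kit, single-end 50 bases, per the labels' protocols) of 3 LRG1 and 3 PBS hepatocyte samples were used. The authors deposited raw read counts per gene symbol. Per the submitters' processing notes these came from bcl2fastq, TopHat2 and HTSeq with mm9. For versions, annotation and strand setting, no value is given in the sources used here. The 5 summary rows were left out. Of all row totals, 58.2 to 59.3% were alignments that were not unique, and 8.96 to 10.3% of unique ones fell in no gene. Close paralogs may thus have lost counts.

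Genes passing edgeR's filterByExpr (12301 of 22609) were fitted with TMM and the quasi-likelihood F test (edgeR 4.0.16, R 4.3.3), Benjamini-Hochberg adjusted over all of them, threshold 0.05. SEs were derived from F, and 95% intervals use the moderated degrees of freedom. CPM use the TMM-scaled totals of the tested genes. "Adjusted p" with no other name is edgeR's. Replicates of a group differed beyond counting noise (chi-square per degree of freedom 2.91 to 4.18), so none was merged.

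Exon overlaps, gene order, lengths and shared 50-base windows come from GENCODE M21 (GRCm38), another build than the files', and promoters (22 of 31 members matched) from RefSeq GRCm38.p6. On simulated counts for this comparison (12219 genes), calls with the right sign covered 57.1% of 49 genes simulated at 1.25-fold, 80.0% of 50 at 1.5-fold and 98.0% of 50 at 2-fold. Of the 177 calls made there, 5.65% were false. In the data 51.4% of tested genes were called, a far larger share, so these figures need not carry over.

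The members, gene lists and tests were chosen with earlier results of these data known. Every member enters the counts, and 2 of the 31 are not reported here by name. Values per library are given for members called at 1.5-fold or more and for the 2 paralog pairs (also for a few others, chosen after their values were seen), and at most 6 genes per context list are named. Alternatives were other scalings, filters, DESeq2 1.42.0, limma-voom 3.58.1, a replicate block and leaving out each library.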

Additional observations from a re-analysis of the deposited data

How the results depend on the processing

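Over 15 alternatives, 19 of the 22 calls among the 31 genes held in every one, none reversed, and none of the 9 uncalled genes was called. Of 465 member values, 13 lost a call, all of Abca7, Abca4 or Abcb9. The count of lower members ran from 15 to 17 and that of higher members from 4 to 5. Over all tested genes, calls ran from 5594 (DESeq2) to 6592 (no filter on low counts). The sign of the uncalled Abcc5, Abcd4 and Abcf3 differed between settings. Same-numbered samples did not deviate together (correlations of -0.14, -0.020 and -0.13). Differently numbered ones had correlations of -0.040 to 0.15. With 3 samples a group, these values cannot show whether the numbers pair the samples. With the replicate block, 4 members were higher and 17 lower, against 5 and 17 without it, and 5890 genes were called. Abca7 then had an adjusted p of 0.0528. Counts under about 50 a library limit Abca4, Abca8a, Abcb9, Abcd2 and Abcg1, and 3 samples a group limit every comparison.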
